A study of Saccharomyces cerevisiae with 6 samples.

Results

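The 93 spots described here read lower in a budding yeast strain deleted for CLN3 and in diploid, triploid and tetraploid strains than in a strain deleted for WHI5 and in a wild-type haploid. They were chosen by their own measured values. The level of a spot is the log2 ratio of its run-on signal to the genomic DNA signal of the same membrane, with the array's median set to 0. A member's S/N, the deposited ratio of signal to background, was at least 2 on each of the 6 arrays of whi5Δ and WT N. Its highest mean level among cln3Δ, 2N, 3N and 4N lay at least 0.3 below its lowest mean level in whi5Δ and WT N. That distance is called the gap. Of 6144 spots on a membrane, 4057 could have met the rule and 93 did (2.29%). The opposite pattern, with the 4 strains at least 0.3 above both others, was found at 15 of those 4057 spots. The S/N filter on whi5Δ and WT N leaves out spots that are dim in them. That count is therefore held down by the filter and cannot be weighed against the 93.

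The study compared Saccharomyces cerevisiae strains that differ in cell volume. Nascent transcription was measured by genomic run-on: sarkosyl-permeabilised cells were given 33P-labelled UTP, and what they transcribed was hybridised to the laboratory's own macroarrays, whose spots carry whole open reading frames. The groups were cln3Δ, the polyploids 2N (strain PY4993), 3N (PY4997) and 4N (PY4996), whi5Δ, and the wild-type haploid WT N (BY4741), each with 3 run-on arrays from cultures in exponential growth in YPD. The sources used here do not give the ploidy and parent of the deletion strains, nor how the polyploid strains relate to BY4741 in mating type and markers. For cln3Δ the source label names wild-type cells and potassium chloride, while title, description and strain label name the deletion. The title was followed, and the medium of that strain is uncertain wherever a direction is given for it. No label says that the 3 arrays of a strain stand for 3 cultures, so a p-value here sets differences against the spread among arrays, which may be technical.

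Cln3 is a G1 cyclin that works with the kinase Cdc28 to start the cell cycle, and Whi5 is a repressor that holds back the G1/S transcription programme until it is phosphorylated. Loss of Cln3 is known to give large cells and loss of Whi5 small ones, and cell volume rises with ploidy. In a run-on assay only polymerases already engaged on a gene extend their transcripts, so the signal follows the density of active polymerase and not the amount of mature mRNA.

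The files name a spot by the row and column of its block and its position in that block, and pair none with a gene. Spots are therefore named by place, so that R16-C20:1 is row 16, column 20, position 1. CLN3 and WHI5 themselves could not be read, and the strain labels were not checked on them. In bulk samples, transcription of a gene in fewer cells and less transcription per cell cannot be told apart. The median signal of an array lay between 38.99 and 166.4 intensity units, and 73.5% to 83.7% of its spots had S/N of at least 2. The 18 run-on arrays lie on 7 membranes numbered 12 to 18, so strain and membrane overlap only in part, and the number of arrays limits the precision.

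Across the 93 members, the median level was 0.68 in cln3Δ, 0.82 in 2N, 0.66 in 3N and 0.67 in 4N, against 1.63 in whi5Δ and 1.62 in WT N. At the 3964 other eligible spots the medians were 0.14, 0.20, 0.18 and 0.18 in the same 4 strains, against 0.19 in whi5Δ and 0.15 in WT N. The mean of the lower 4 strains minus the mean of whi5Δ and WT N had a median of -0.74 over the members, with a range of -4.89 to -0.36. That median is a 1.67-fold higher ratio in whi5Δ and WT N, and at 22 members the difference was over 2-fold. Fold values are relative to each array's median. Centring on it removes any overall change in transcription between strains, so none can be read here. These values describe what the rule selected and were not tested.

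The gap itself ranged from 0.30 to 4.32 with a median of 0.45, against a median of -0.23 over all 4057 eligible spots. It was at least 1 at 6 members, between 0.5 and 1 at 32 and between 0.3 and 0.5 at 55, so most members lie close to the limit. On single arrays, all 12 arrays of the lower strains lay below all 6 arrays of whi5Δ and WT N at 23 members. That was so at 25 of the 4057 eligible spots (0.616%), and nothing is read from it since the rule used these values. The other 70 members overlap on at least 1 array.

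**Figure D1:**
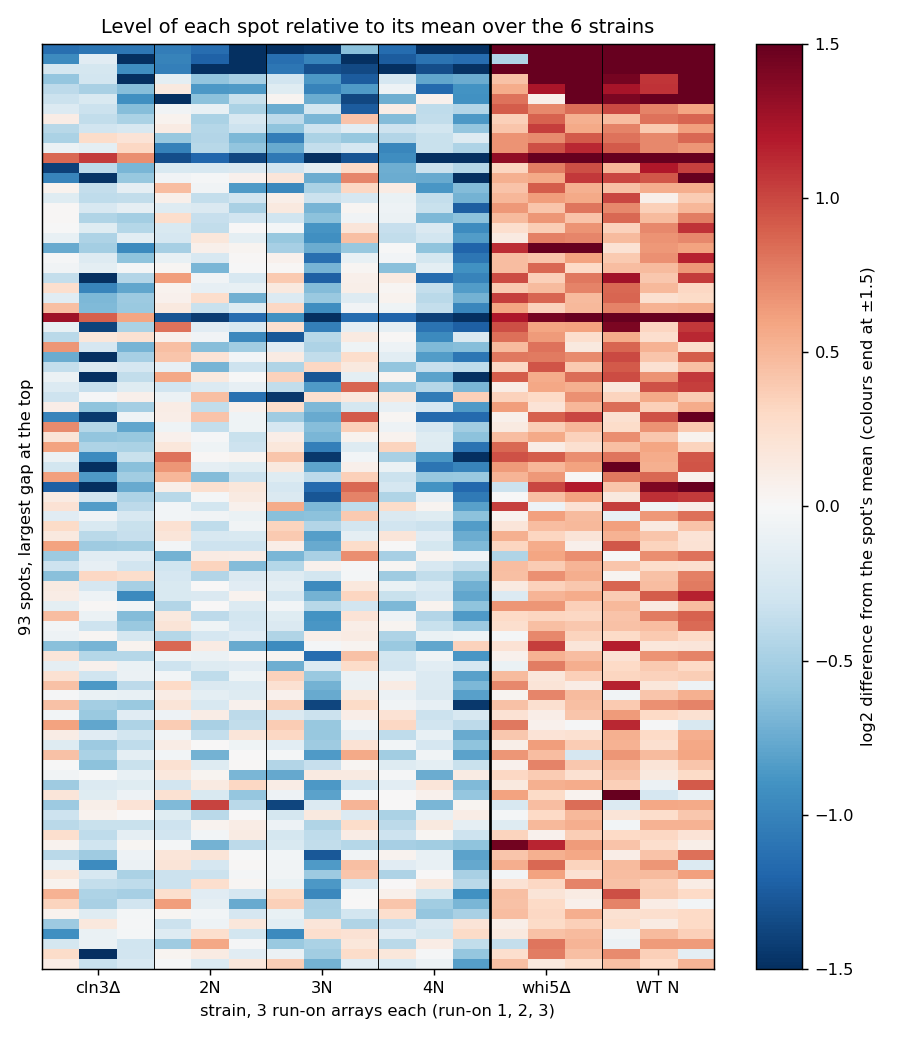
Level of each of the 93 spots (rows, largest gap at the top) on each of the 18 run-on arrays (columns, 3 per strain, cln3Δ on the left and WT N on the right), as the log2 difference from the spot's mean over the 6 strains, with colours ending at ±1.5. The 12 arrays on the left are mostly below the spot's mean and the 6 on the right above it, and the contrast is strongest in the top rows, where 6 members have a gap of at least 1.

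Just inside the limit, R3-C3:7 had a gap of 0.30, with mean levels of 0.68 in cln3Δ, 0.82 in 2N, 0.67 in 3N and 0.46 in 4N, against 1.12 in whi5Δ and 1.26 in WT N. R15-C9:14, with a gap of 0.31, had means of -0.28, 0.26, 0.15 and 0.12 in those 4 strains, against 0.75 in whi5Δ and 0.56 in WT N. Just outside, R2-C10:13 had a gap of 0.2988, with means of -0.25, -0.17, -0.40 and -0.22, against 0.22 in whi5Δ and 0.13 in WT N. R15-C13:8, with a gap of 0.2986, had means of 0.49, 0.61, 0.59 and 0.56, against 0.91 in whi5Δ and 0.91 in WT N. The spots on both sides of the limit look alike, so the number of members depends on where it is set.

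The largest gap, 4.32, was at R16-C20:1. Its levels on run-on 1, 2 and 3 were -1.59, -1.56 and -1.54 in cln3Δ, -1.497, -1.60 and -3.52 in 2N, -3.67, -1.92 and -1.09 in 3N, and -1.62, -3.29 and -2.16 in 4N, against 2.11, 3.48 and 2.93 in whi5Δ and 2.43, 3.03 and 2.81 in WT N. No array of the lower strains came near one of whi5Δ or WT N, and the mean of whi5Δ and WT N was 29.6-fold that of the lower strains. Before division, the signal was 24.5 to 137 intensity units in the lower strains and 277 to 2233 in whi5Δ and WT N. The 3 lowest polyploid values all lie on membrane 18, where genomic DNA at this spot read 333 against 57.9 to 75.3 on the other 6 membranes. Without division by genomic DNA the difference between the lower strains and the others was -4.40, against -4.89 with it.

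R14-C10:9 had the next largest gap, 3.09. Its levels were -0.82, -0.04 and -2.43 in cln3Δ, -0.87, -1.08 and -1.38 in 2N, -1.01, -0.86 and -1.54 in 3N, and -1.13, -0.99 and -1.02 in 4N, against -0.32, 3.29 and 3.17 in whi5Δ and 2.71, 3.10 and 3.49 in WT N. The groups overlap, since cln3Δ run-on 2 lay above whi5Δ run-on 1. In the 3 polyploids S/N was under 2 on all arrays, so those levels are uncertain. Their log2 difference from WT N was -4.21 in 2N, -4.24 in 3N and -4.14 in 4N. Genomic DNA was weak here, with S/N under 2 on 5 of 7 membranes, and read 98.4 on membrane 15, which carries cln3Δ run-on 3 and whi5Δ run-on 1, against 10.6 to 19.3 elsewhere.

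The other 4 members with a gap of at least 1, named here after their values were seen, were R11-C6:6, R2-C10:1, R7-C13:10 and R1-C14:11. At R7-C13:10 all 18 arrays had S/N of at least 2, and mean levels were 0.27 in cln3Δ, 0.26 in 2N, 0.10 in 3N and 0.06 in 4N, against 1.92 in whi5Δ and 2.06 in WT N. The lower strains read almost the same as each other at this spot. At R1-C14:11 none of the 12 arrays of the lower strains reached S/N of 2, so their levels there are uncertain. The means were 0.76, 0.27, 0.57 and 0.73, against 2.15 in whi5Δ and 3.05 in WT N. At R2-C10:1, cln3Δ was under S/N 2 on all 3 arrays and its mean of -1.68 is uncertain. The means were -1.27 in 2N, -1.65 in 3N and -1.45 in 4N, against 0.43 in whi5Δ and 0.50 in WT N.

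The brightest member in whi5Δ and WT N was R7-C14:4. It read 1.51, 1.16 and 1.97 in cln3Δ, 2.82, 2.97 and 2.90 in 2N, 2.47, 1.56 and 3.59 in 3N, and 2.48, 1.83 and 1.55 in 4N, against 2.41, 3.73 and 3.92 in whi5Δ and 3.14, 4.13 and 4.97 in WT N. The strains differ widely among themselves here, and arrays of 2N, 3N and 4N lie above whi5Δ run-on 1. R3-C9:2, the next brightest, read 2.89, 2.72 and 2.47 in cln3Δ, 2.68, 2.54 and 2.91 in 2N, 2.88, 2.02 and 3.08 in 3N, and 2.56, 2.68 and 1.96 in 4N, against 3.16, 3.27 and 3.57 in whi5Δ and 3.25, 3.62 and 3.99 in WT N. No arrays overlapped, and the mean of whi5Δ and WT N was 1.82-fold that of the lower strains.

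The 2 members with the strongest genomic DNA had gaps of 0.31 and 0.60. R8-C18:14, with genomic DNA S/N of at least 21.8 on all 7 membranes, read -1.28, -1.51 and -1.36 in cln3Δ, -1.30, -1.37 and -1.58 in 2N, -1.44, -1.80 and -1.60 in 3N, and -1.08, -1.91 and -1.81 in 4N, against -0.86, -1.02 and -0.78 in whi5Δ and -1.10, -1.08 and -1.03 in WT N. It is a dim spot, and 4N run-on 1 overlaps WT N. R5-C11:5, with genomic DNA S/N of at least 13.3, read 1.82, 0.58 and 0.78 in cln3Δ, 1.62, 1.45 and 1.45 in 2N, 1.70, 0.91 and 1.65 in 3N, and 1.59, 1.21 and 0.73 in 4N, against 1.95, 2.04 and 2.31 in whi5Δ and 2.43, 2.05 and 1.88 in WT N. All its lower-strain arrays lay below those of whi5Δ and WT N, with a 1.76-fold difference of means.

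**Figure D2:**
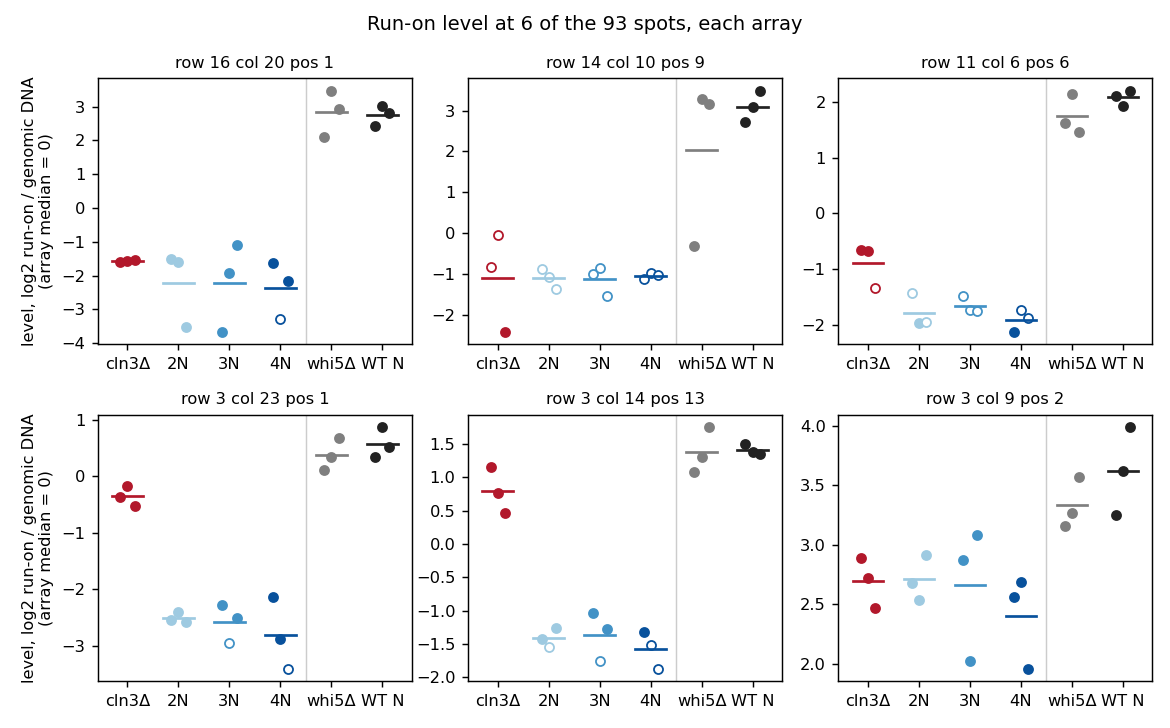
Level (log2 run-on over genomic DNA, array median at 0) of 6 of the 93 spots on each of the 3 run-on arrays of cln3Δ, 2N, 3N, 4N, whi5Δ and WT N, with open circles where S/N was under 2 and a bar at the strain's mean. R16-C20:1 shows the widest separation, with a gap of 4.32, while at R3-C23:1 and R3-C14:13 the points of cln3Δ stand near those of whi5Δ and WT N and well above the polyploids.

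The rule sets no order among cln3Δ and the polyploids, so differences within that group can be tested. In a linear model of 6 strain means over all 18 arrays (limma, Benjamini-Hochberg over 4979 spots), cln3Δ minus the mean of 2N, 3N and 4N was called at adjusted p under 0.05 at 3 of 93 members, against 2.81% of all tested spots. All 3 were higher in cln3Δ, a direction found at 2.29% of tested spots. The share among members is close to that background. At an unadjusted p under 0.05 there were 9 members and 614 of all 4979 spots.

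R3-C23:1 read higher in cln3Δ than in the polyploids, though lower than in WT N. Its levels were -0.36, -0.16 and -0.52 in cln3Δ, against -2.55, -2.40 and -2.58 in 2N, -2.28, -2.95 and -2.51 in 3N and -2.14, -2.89 and -3.41 in 4N, with 0.12, 0.34 and 0.69 in whi5Δ and 0.35, 0.87 and 0.53 in WT N. The 3 cln3Δ arrays lay far above all 9 polyploid arrays and just below those of whi5Δ. The difference was 2.29 (SE 0.22, 95% interval 1.83 to 2.75, limma adjusted p = 1.58e-06). On membrane 13, which held run-on arrays of both cln3Δ and 3N, it was 2.16.

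R3-C14:13 likewise had its cln3Δ mean above the polyploid means and below those of whi5Δ and WT N. It read 1.15, 0.76 and 0.46 in cln3Δ, against -1.43, -1.55 and -1.27 in 2N, -1.04, -1.76 and -1.28 in 3N and -1.33, -1.52 and -1.88 in 4N, with 1.09, 1.31 and 1.76 in whi5Δ and 1.51, 1.38 and 1.36 in WT N. Here cln3Δ run-on 1 lay above whi5Δ run-on 1, while the polyploids stayed below every array of the other 3 strains. The difference was 2.24 (SE 0.19, 95% interval 1.84 to 2.64, limma adjusted p = 3.58e-07) and 2.43 on membrane 13. Genomic DNA S/N was under 2 on 2 membranes at this spot.

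The remaining call, R11-C6:6, falls outside the rule for named spots and was picked out after its values were seen. It read -0.66, -0.67 and -1.34 in cln3Δ, against -1.43, -1.97 and -1.95 in 2N, -1.49, -1.73 and -1.76 in 3N and -2.13, -1.74 and -1.88 in 4N, with 1.63, 2.15 and 1.45 in whi5Δ and 2.10, 1.93 and 2.20 in WT N. All 6 arrays of whi5Δ and WT N stood far above the rest. The difference of cln3Δ from the polyploids was 0.89 (SE 0.19, 95% interval 0.50 to 1.28, limma adjusted p = 0.00884). All 3 arrays of 3N were under S/N 2, so that level is uncertain. The call was lost without cln3Δ replicate 1 (adjusted p = 0.0803) or replicate 2 (adjusted p = 0.104), by the same limma test.

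**Figure D3:**
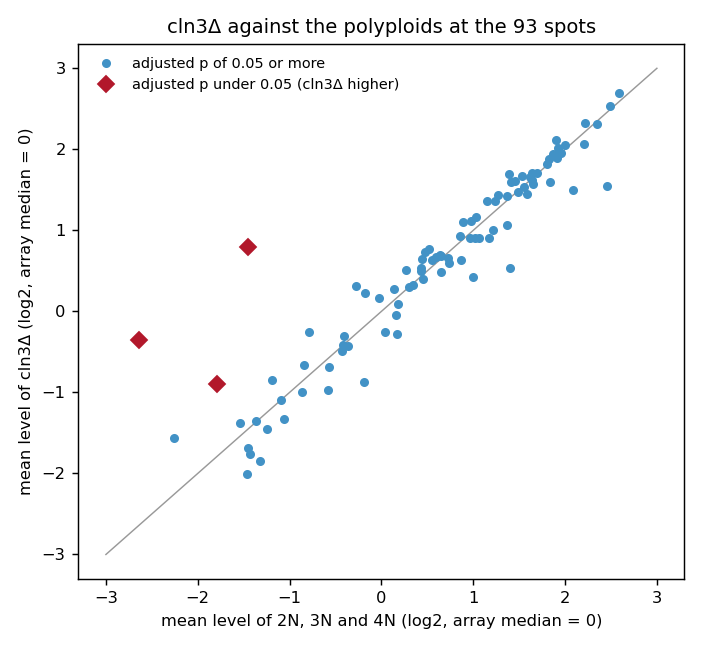
Mean level of cln3Δ (vertical axis, log2, array median at 0) against the mean level of 2N, 3N and 4N (horizontal axis) at the 93 spots, with diamonds for the 3 spots at adjusted p under 0.05. Most points lie near equality, and R3-C23:1 and R3-C14:13 stand 2.29 and 2.24 above it.

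At the other 90 members no difference between cln3Δ and the polyploids passed the test in the fit given above, which has no block. The median standard error over tested spots was 0.20 on the log2 scale. Some alternatives without a block did call others. Without genomic DNA division limma called 4 members, all higher in cln3Δ, and R11-C6:6 was not among them. Without cln3Δ replicate 3 it called 3 higher and 1 lower. With run-on number as a block, limma also called R11-C9:3 (difference 0.60, adjusted p = 0.0287) and R14-C9:9 (0.53, adjusted p = 0.0412) higher in cln3Δ, and R14-C4:9 (-0.86, adjusted p = 0.0277) and R7-C9:1 (-0.57, adjusted p = 0.0397) lower. These 4 are named after their values were seen, and calls over all 4979 spots went up to 222 under that block, against 140 without it. cln3Δ lay above the mean of the polyploids at 51 members. It was at least 0.5 above at 6 and at least 0.5 below at 7. The range of the 4 strain means had a median of 0.36 over the members and 0.31 over the other eligible spots, and it was over 1 at 8 members and under 0.3 at 31. Whatever the level of cln3Δ, the 3 polyploids lay at least 0.3 below whi5Δ and WT N at 190 eligible spots, of which the members are 48.9%. Whatever the level of the polyploids, cln3Δ did so at 363 spots, of which the members are 25.6%. The first count needs 3 low strain means and the second 1, so the shares are not alike. Both counts share the whi5Δ and WT N arrays.

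Between whi5Δ and WT N, 0 of 93 members were called by limma after Benjamini-Hochberg adjustment, against 0.0402% of tested spots. At an unadjusted p under 0.05 there were 2 members and 130 of all spots. The absolute difference of their means had a median of 0.12 over the members and 0.13 over the other eligible spots. whi5Δ lay above WT N at 33 members and below at 60. No membrane carried run-on arrays of both strains.

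Among the polyploids, 4N minus 2N gave 0 called members by limma (0% of tested spots), with 6 members and 51 spots in all at an unadjusted p under 0.05. 3N minus the mean of 2N and 4N also gave 0 (0% of tested spots), with 1 member and 86 spots in all at that unadjusted p. As a description, 4N lay below 2N at 82 members (88.2%), against 58.4% of the other eligible spots, and the median of 4N minus 2N was -0.23 over the members and -0.04 over the others. 4N had the lowest mean of the 4 strains at 50 members (53.8%, against 21.8% of the other eligible spots) and cln3Δ at 24 (25.8% against 39.0%). 3N was lowest at 15 (16.1% against 20.0%) and 2N at 4 (4.3% against 19.2%). 2N had the highest mean of the 4 at 52 of the 93 members, and at 31.3% of the other eligible spots.

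The size of that 4N difference varied with the arrays. Without 4N replicate 3, on membrane 12, the median of 4N minus 2N was -0.10 over the members, and without 2N replicate 1 it was -0.15. Without 4N replicate 1 it was -0.35. With membrane as a fixed block it was -0.06. On membrane 17, which held both strains, it was 0.01, with 4N below 2N at 45 members, and on membrane 18 it was -0.10, with 62 below. On these membranes 53.7% and 57.7% of the other eligible spots were lower in 4N.

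The member medians of single arrays on run-on 1, 2 and 3 were 0.95, 0.58 and 0.63 in cln3Δ, 0.95, 0.82 and 0.90 in 2N, 0.85, 0.48 and 0.90 in 3N, and 0.70, 0.75 and 0.40 in 4N, against 1.37, 1.64 and 1.64 in whi5Δ and 1.71, 1.39 and 1.59 in WT N. The highest lower-strain array, 0.95, was below the lowest of whi5Δ and WT N, 1.37, as the rule makes likely. The arrays on membrane 12 were the extremes: 4N run-on 3 and 3N run-on 2 had the lowest medians and WT N run-on 1 the highest. The median SD of a member over the 3 arrays was 0.32 in cln3Δ, 0.25 in 2N, 0.48 in 3N and 0.38 in 4N, against 0.27 in whi5Δ and 0.25 in WT N. At the other eligible spots it was 0.24 to 0.29.

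Run-on arrays on the same membrane share 1 genomic DNA hybridisation, which cancels in their difference. In 9 such pairs, an array of a lower strain could be set against one of whi5Δ or WT N. The rule chose the members on these same arrays, so the pairs show how the selected difference is spread over membranes and nothing else is read from them. On membrane 14, cln3Δ run-on 2 lay below WT N run-on 3 at all 93 members, with a median difference of -0.90. On membrane 13, cln3Δ run-on 1 lay below WT N run-on 2 at 82, with a median of -0.51, and on membrane 15, cln3Δ run-on 3 lay below whi5Δ run-on 1 at 89, with a median of -0.69. For 2N, 83 members were below whi5Δ on membrane 16 (median -0.59) and 91 on membrane 17 (median -0.63).

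For 3N, 91 members were below WT N on membrane 12 (median -1.27) and 90 on membrane 13 (median -0.40). For 4N, 90 were below WT N on membrane 12 (median -1.30) and 88 below whi5Δ on membrane 17 (median -0.71). The shares of the other eligible spots that were lower in these 9 pairs ran from 43.4% to 59.7%. In all 9 pairs, 71 members were lower in the array of cln3Δ, 2N, 3N or 4N, as were 118 of the 3964 other eligible spots (2.98%), a contrast that the selection itself sets. Of the members, 87 were lower in at least 7 pairs. Differences on membrane 12 were the widest, and the cause was not tested.

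**Figure D4:**
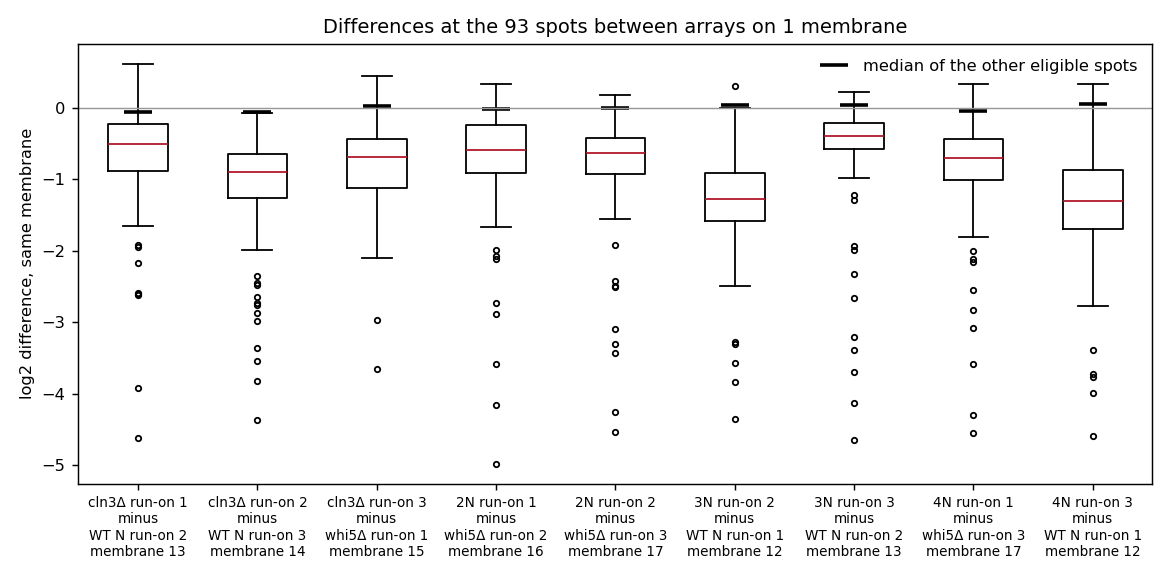
Log2 difference at the 93 spots between a run-on array of cln3Δ, 2N, 3N or 4N and one of whi5Δ or WT N on the same membrane, for 9 pairs, with boxes over the middle of the members' values from the lower to the upper quartile, a line at their median, points beyond the whiskers, and the median of the other eligible spots as a short bar. The medians of the boxes run from -0.40 to -1.30 and the bars lie near 0, as the choice of members on these arrays makes likely.

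Taken 1 strain at a time, limma called 15 members lower in cln3Δ than in WT N (0.402% of tested spots were called lower), 11 in 2N (0.783%), 13 in 3N (0.944%) and 28 in 4N (1.57%). The rule used these contrasts, so nothing is read from the counts. They rest on few arrays. The cln3Δ count was 8 without cln3Δ replicate 2 or WT N replicate 3 and 9 without cln3Δ replicate 3 or WT N replicate 2. The 4N count was 11 without 4N replicate 3 or WT N replicate 3 and 17 without 4N replicate 2 or WT N replicate 2. The 3N count was 22 without 3N replicate 3. With run-on number as a block, which pairs the arrays of 4N and WT N, the 4N count was 43, while lower calls over all 4979 spots went up as well, to 122, against 78 without the block.

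The members are bright spots. Their mean level over whi5Δ and WT N had a median of 1.64, against 0.17 at the other eligible spots, and 71 of them (76.3%) lay above the 75th percentile of eligible spots by that level. Choosing spots that are high in these strains favours this. By the mean over all 6 strains, 54 members (58.1%) lay above the 75th percentile. The 960 other eligible spots above it had a median difference between the lower strains and the others of -0.06. Their median level was 1.24 in cln3Δ, 1.26 in 2N, 1.26 in 3N and 1.23 in 4N, against 1.24 in whi5Δ and 1.30 in WT N.

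The spread of levels on an array was compared as well, and its part in the result was not tested beyond other scalings. The median absolute deviation of levels was 0.59 to 0.71 on arrays of the lower strains and 0.59 to 0.68 on those of whi5Δ and WT N. The 95th percentile was 1.60 to 1.87 in the lower strains and 1.76 to 2.01 in whi5Δ and WT N. With arrays scaled to a common deviation, 104 spots met the rule and 91 of the 93 members were among them. With quantile normalisation, 62 met it, all of them members.

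Of the members, 69 had S/N of at least 2 on all 18 arrays. At 7 members at least 1 lower strain was under S/N 2 on all 3 arrays, and its level there is uncertain. This was so at 5 members in cln3Δ, 2 in 2N, 4 in 3N and 2 in 4N, some of them counted in more than 1 strain. Only signals below the array's smallest value with S/N of at least 2 were raised to that value. Levels under S/N 2 are therefore not strict bounds. Genomic DNA S/N was at least 2 on all 7 membranes at 53 members (57.0%), against 43.6% of the other eligible spots. The median gap was 0.45 at those 53 and 0.46 at the rest. Of the 6 members with a gap of at least 1, 3 had such genomic DNA. At 7 members genomic DNA S/N was under 2 on at least 4 membranes.

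On the membrane, the members were spread over 86 of 384 blocks of 16 spots, and no block held more than 2. Each of the 16 rows held 1 to 10 of them and each of the 24 columns 1 to 9. Rows 1 to 8 held 58 (62.4%, against 52.1% of the other eligible spots). The 869 other eligible spots in the members' own blocks, which share the members' background value, had a median difference between the lower strains and the others of -0.0042. The neighbours' median is close to the 0.0007 of all other eligible spots.

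Position 11 of the block held 13 members (14%, against 4.04% of the other eligible spots), 5 of them in row 1, while the other positions held 2 to 9. This was seen after the values were known and was not tested. At those 13 the median of cln3Δ minus 2N was -0.50, against -0.07 at the other members, and the median of 4N minus 2N was -0.41, against -0.21. The 160 other eligible spots at position 11 had medians of 0.01 and -0.03 for the same differences and -0.01 for the lower strains minus the others.

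Among the members at position 11, the spots R1-C2:11, R1-C12:11, R1-C16:11 and R2-C19:11 had nearly the same profile. At R1-C16:11 the mean level was -1.85 in cln3Δ, -0.94 in 2N, -1.30 in 3N and -1.72 in 4N, against -0.34 in whi5Δ and -0.14 in WT N. At R1-C12:11 it was -1.76, -0.96, -1.41 and -1.92 in those 4 strains, against -0.38 in whi5Δ and -0.17 in WT N. At R2-C19:11 it was -2.0045, -1.08, -1.38 and -1.92, against -0.62 in whi5Δ and -0.16 in WT N. R1-C2:11 stood higher in every strain, at -0.97, -0.02, -0.62 and -1.11, against 0.50 in whi5Δ and 0.64 in WT N. At all 4 spots 2N was the highest of the lower strains and 3N the next, while the lowest was cln3Δ at R1-C16:11 and R2-C19:11 and 4N at R1-C2:11 and R1-C12:11. Similar values are not limited to position 11. Relative to WT N, R1-C1:13, also named after its values were seen, read -1.21 in cln3Δ, -0.47 in 2N, -1.12 in 3N and -1.86 in 4N. R1-C2:11 read -1.61, -0.66, -1.26 and -1.75 by that measure.

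Over 18 arrays the 6 pairs of these 4 spots correlated with r of 0.93 to 0.98, against a median r of 0.64 over all pairs of members. After each strain's mean was removed, r was 0.83 to 0.97, against a median of 0.24. The spots share libraries and membranes, they were picked out after their values were seen, and whether they carry related sequences was not tested.

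**Figure D5:**
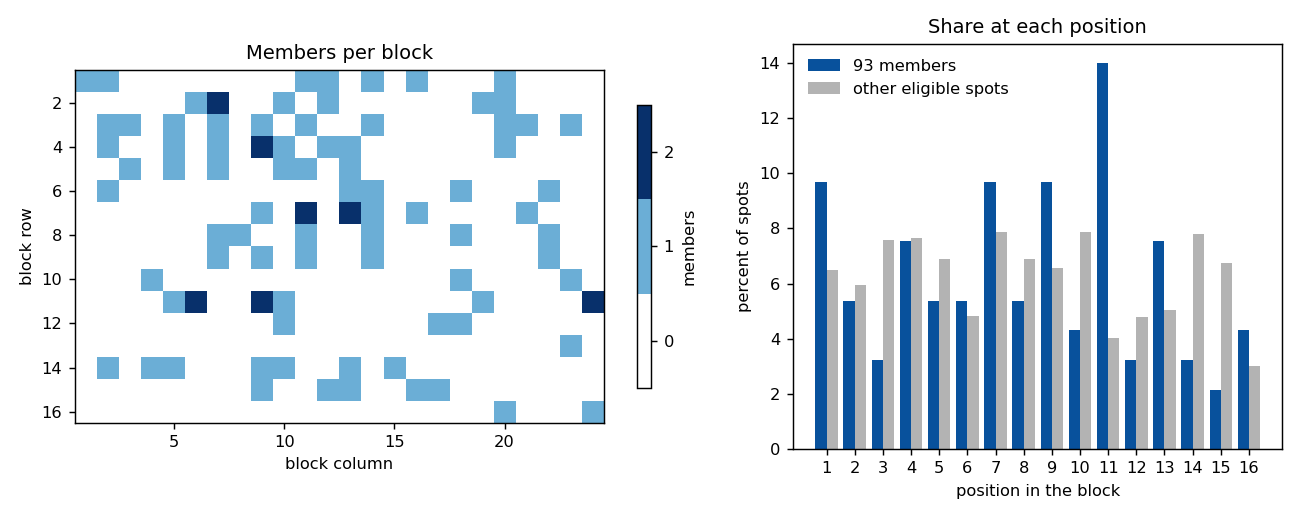
Left, number of members in each block of the membrane (block column across, block row down, 0, 1 or 2 members). Right, percent of the 93 members and of the other eligible spots at each of the 16 positions in a block, where position 11 holds 14% of members and 4.04% of the others.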

How the data were processed

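The 18 run-on arrays and 7 genomic DNA hybridisations (deposited as 18 files, copies within a membrane being identical) are spot tables from image quantification. Per the file headers, the deposited intensity is a density less its background, per area, and the deposited S/N score is signal over background. Per the series' design text the authors later normalised by median absolute deviation, and the deposited files precede that step. The sources used here do not name the imaging program.

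Strain was taken from sample titles. Array names alone give the membrane and the run-on number, which serves as the replicate number. Run-on intensity was floored at the array's smallest value with S/N of at least 2, divided by genomic DNA, taken as log2 and centred on the array median. A spot was tested where genomic DNA exceeded 0 on all 7 membranes and S/N was at least 2 on all 3 arrays of 1 strain (4979 spots). All arrays entered 1 linear model with a mean per strain, fitted by lmFit and eBayes (R 4.3.3, limma 3.58.1, statmod 1.5.0), called at Benjamini-Hochberg adjusted p under 0.05. The procedure was run on simulated data with independent noise on each array. Correlation between arrays of a membrane or run-on number was not simulated, so p-values were not checked against it. The members, lists and tests were chosen with earlier results of these data known.

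Named spots are the 2 with the largest gap, the 2 brightest in whi5Δ and WT N, the 2 on each side of the limit, up to 2 called members per direction and tested contrast whose arrays do not overlap, and the 2 with the strongest genomic DNA. Others are said to be outside this rule or are described as members of a count. Arrays of the same run-on number deviated together, with all 3 correlations over 0.1, in 5 of 15 pairs of strains, among them 4N and WT N (0.37, 0.20 and 0.17) and whi5Δ and WT N (0.50, 0.22 and 0.39). Such pairing comes from the data and not the labels. It entered only the alternative fit with run-on number as a block, and the main fit treated all arrays as unpaired. Alternatives were other scalings, no genomic DNA division, no background subtraction, other filters, blocks by run-on number or membrane (consensus correlation 0.286), and leaving out arrays.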

Additional observations from a re-analysis of the deposited data

Results flagged for a closer look

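Differences between cln3Δ and the polyploids that passed the limma test, within the group that the rule treats alike, set 3 spots apart. R3-C14:13 was 2.24 higher in cln3Δ on the log2 scale, R3-C23:1 was 2.29 higher and R11-C6:6 was 0.89 higher. At R3-C23:1 the value ranged from 1.64 to 2.47 over other settings and at R3-C14:13 from 1.55 to 2.56. Both remained past the threshold in each alternative that gave a value. R11-C6:6 did not, as given with its values above.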

How the results depend on the processing

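The number of spots that met the rule was 93, and it was 61 without background subtraction, 57 where genomic DNA S/N had to reach 2 and 38 with a gap of 0.5. Leaving out 1 array gave 66 (3N replicate 2) to 116 (whi5Δ replicate 1). After seeing the data, leaving out the 3 membrane 12 arrays was added, which gave 62 spots (56 of them members), and leaving out the 6 run-on 1 arrays, which gave 114 (71 of them members). Without genomic DNA division 87 spots met the rule, 68 of them members. At the 93 members, the median difference between the lower strains and the others kept its sign throughout (-0.83 to -0.62, and -0.79 to -0.68 with 1 array left out). The members were chosen for that sign on these same arrays, so nothing is read from it.

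With run-on number as a replicate block, 7 members were called between cln3Δ and the polyploids, 5 higher and 2 lower, against 3 without it, while calls over all 4979 spots were 222 (153 higher, 69 lower) with the block and 140 without. The numbers pair cln3Δ with 2N and 4N but not with 3N, where 1 correlation was -0.11. Leaving out 1 array gave 2 (without cln3Δ replicate 2) to 4 calls (without cln3Δ replicate 3). Between whi5Δ and WT N, 1 member was called without genomic DNA division and 0 in all other settings, the replicate block included. The other 2 tested contrasts gave 0 in every setting. R11-C6:6 was also not called without genomic DNA division (limma adjusted p = 0.249) or without the run-on 1 arrays (limma adjusted p = 0.0635). Those settings gave 4 and 3 called members between cln3Δ and the polyploids, so other members were called there. The block changed no other tested call. Apart from the stricter filters and larger gap, which admit fewer spots, the cause of these moves was not tested. At the 7 members with a lower strain under S/N 2 on all 3 arrays, the level of that strain is uncertain.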
